A study of Mus musculus with 2 samples.

Results

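G1 cyclins and their kinases are the genes that carry a cell from rest through the first gap of the cell cycle to the start of DNA synthesis. The set followed here has 10 members of the 24091 genes in the deposited table, chosen by name and found by exact match of the symbol: Ccnd1, Ccnd2, Ccnd3, Ccne1, Ccne2, Cdk2, Cdk4, Cdk6, Cdc25a and Rb1. RNA-seq read counts covered 1 IL-2 expanded and 1 freshly isolated sample of mouse splenic γδ T cells, lymphocytes that recognise antigen through a receptor of γ and δ chains. Per the labels' protocols, cells sorted by flow cytometry received plate-fixed anti-CD3 with soluble anti-CD28 and interleukin 2 (IL-2) at 100 U/ml, with expansion over 5 days. Both samples carry identical protocol text, and the freshly isolated cells were taken as uncultured from the treatment label alone. Strain, age and the number of mice are not given in the sources used here.

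D-type cyclins are made in response to growth signals and bind the kinases Cdk4 and Cdk6. These complexes phosphorylate the retinoblastoma protein, which otherwise holds E2F transcription factors inactive, and released E2F switches on the E-type cyclins, whose partner is Cdk2. In T cells, signals from the antigen receptor and from IL-2 are known to raise D cyclins and to lower the Cdk inhibitor p27.

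With 1 library a group the variation among samples is unknown, so no difference was tested and genes are described by size of fold. Activation, culture and IL-2 came together in the expanded library and cannot be told apart. The total count was 22204099 in the expanded and 20379385 in the freshly isolated library. Levels are CPM (counts per 1000000 of the library size after TMM scaling). One count equalled 0.0476 CPM in the expanded and 0.0465 CPM in the freshly isolated library. Intervals are exact at the 95% level for independent reads and reflect counting error alone, because 1 library a group gives no spread among samples. Reads that carry no molecular identifier may be copies of one molecule, which would make these intervals too narrow. Of 6 T cell markers, 4 were under 2-fold apart, among them Cd3e, Cd3d and Cd3g, 1 was higher (Thy1) and 1 lower (Lck). Their summed level was 4935 CPM in expanded and 4261 CPM in freshly isolated cells. That sum rests much on Thy1 (2278 CPM in expanded and 847 CPM in freshly isolated cells). Lck went the other way (563 CPM in expanded and 1184 CPM in freshly isolated cells). Constant genes of the receptor chains were not analysed here. Over all genes with a mean of 1 CPM or more, 22.4% were at least 2-fold higher and 25.0% at least 2-fold lower. Markers of other spleen cells were lower in the expanded library. All 11 macrophage and monocyte markers were at least 2-fold lower in the expanded library (summed level 3.66 CPM in expanded and 853 CPM in freshly isolated cells), with Lyz2, Sirpa, Vcam1, Spic, C1qa, C1qb and C1qc at 0 counts there. All 6 B cell markers compared were lower (3.71 CPM in expanded and 911 CPM in freshly isolated cells, 7 markers summed), with Ms4a1, Cd79a, Pax5 and Jchain at 0. All 3 erythroid markers compared were lower (0.0951 CPM in expanded and 70.6 CPM in freshly isolated cells, 4 markers summed), with Hbb-bs, Slc4a1 and Alas2 at 0 in the expanded library. The part of these cells in the results below was not tested, and fewer cells of a type cannot be told apart from less RNA per cell.

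Promoter sequences are shown for the 3 members whose RefSeq promoter held more than 1 match to the E2F or E-box letters described here. A link between these letters and the folds was not tested. RefSeq promoters (build GRCm38.p6, 250 bases before to 50 after a transcript start) were matched for 6 of the 10 members, with 7 entries because Ccnd3 had a pair. Ccnd1, Ccnd2, Ccne2 and Rb1 are named only. Each sequence below is the 250 bases before the start, 5′ to 3′ on the strand of the gene, and capitals mark E2F letters or E-boxes.
Cdk4, chr10:127063285-127063534, plus strand: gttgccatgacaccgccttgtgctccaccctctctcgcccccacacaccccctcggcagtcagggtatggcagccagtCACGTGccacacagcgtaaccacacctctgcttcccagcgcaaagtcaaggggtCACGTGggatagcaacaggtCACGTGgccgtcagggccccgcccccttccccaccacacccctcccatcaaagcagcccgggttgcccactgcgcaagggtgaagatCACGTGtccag
Cdc25a, chr9:109875329-109875578, plus strand: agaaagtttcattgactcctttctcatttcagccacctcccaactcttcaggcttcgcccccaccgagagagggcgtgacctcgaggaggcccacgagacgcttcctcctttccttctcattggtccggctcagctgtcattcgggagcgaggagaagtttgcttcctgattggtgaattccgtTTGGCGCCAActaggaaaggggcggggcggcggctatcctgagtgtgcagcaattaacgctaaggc
Cdk2, chr10:128705052-128705301, minus strand: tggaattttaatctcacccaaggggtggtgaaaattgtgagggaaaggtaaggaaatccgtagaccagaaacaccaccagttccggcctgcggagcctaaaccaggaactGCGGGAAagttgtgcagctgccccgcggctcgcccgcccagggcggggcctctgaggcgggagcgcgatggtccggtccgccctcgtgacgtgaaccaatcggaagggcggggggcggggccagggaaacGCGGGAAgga

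The E-box CACGTG, a sequence bound by MYC among other factors, occurred 4 times in the Cdk4 window, starting 172, 118, 98 and 11 bases before the transcript start, and once in the Cdk6 window. An E-box was present in 7.15% of the 32851 promoters in the table, and 4 or more were present in 8 of them. E2F letters on either strand, which are TTCCCGC with the variants TTCGCGC and also TTGCCGC and lastly TTGGCGC, were present in 9.57% of promoters and, among the 6 members with an entry, in Cdc25a and Cdk2. In Cdc25a a pair of overlapping matches on opposite strands lay between 66 and 57 bases before the start, in a stretch that reads the same on both strands. Cdk2 had matches starting 140 and 10 bases before the start and another in the 50 bases after it. Of all promoters in the table, 388 held 2 or more E2F matches and 43 held 3 or more, overlapping matches counted apart. Among the 6 members with an entry, no window held TTCNNNGAA, the letters recognised by STAT factors, which 8.30% of promoters held. The promoters of Ccnd1, Ccnd2, Ccne2 and Rb1 were not searched. These are matches of letters and not measured binding.

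Most members of the set were higher in the expanded library. Of the 10 members, all passed the filter on low levels (mean over both libraries of 1 CPM or more). Of these, 6 were at least 2-fold higher, 1 was at least 2-fold lower and 3 lay between. Among all 11715 genes compared, 22.4% were at least 2-fold higher and 25.0% at least 2-fold lower. The median log2 fold was 1.52 for the members and 0.04 for all genes compared. Summed over the members, the level was 3597 CPM in expanded and 1002 CPM in freshly isolated cells. At least 4-fold higher were 3 members, the E cyclins and Cdk6, beside 8.92% of all genes compared, whereas Cdk2 and Rb1 were at similar levels in both libraries.

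**Figure D1:**
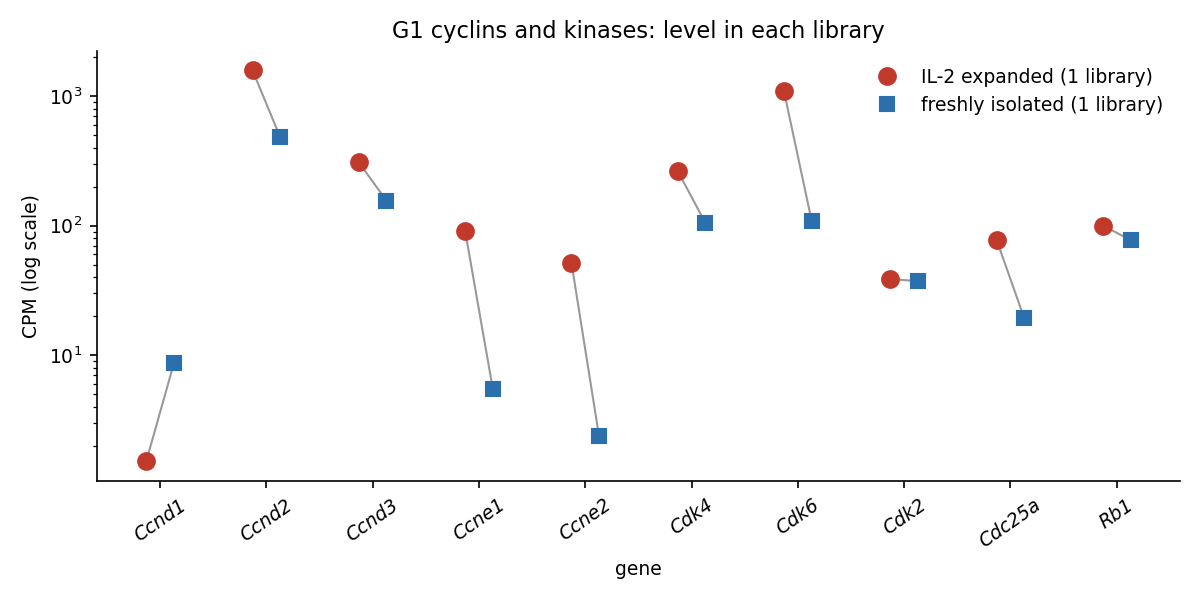
Level of each member in CPM on a log axis, with the IL-2 expanded library as circles and the freshly isolated library as squares, 1 library each, joined by a line for each gene. The lines of Ccne1, Ccne2 and Cdk6 are steepest, that of Cdk2 is nearly flat (38.8 CPM in expanded and 37.2 CPM in freshly isolated cells), and Ccnd1 is the member whose line slopes the other way.

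The D cyclins did not move together: Ccnd2 was higher, Ccnd3 was just under 2-fold higher and Ccnd1 was lower in the expanded library. Ccnd2, the cyclin D2 gene (chr6:127125709-127151048, minus strand, build GRCm38), had 33185 counts or 1579 CPM in the expanded library, against 10367 counts or 482 CPM in the freshly isolated library. It was 3.28-fold higher (interval 3.21 to 3.35) and took 0.149% of all counts in expanded and 0.0509% in freshly isolated cells. Ccnd3, the cyclin D3 gene (chr17:47505051-47599688, plus strand), had 6455 counts or 307 CPM in expanded and 3354 counts or 156 CPM in freshly isolated cells. At 1.97-fold higher (interval 1.89 to 2.06) it lay just under the 2-fold line.

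Ccnd1, the cyclin D1 gene (chr7:144929931-144939925, minus strand), which lymphocytes are known to express little of, had 32 counts or 1.52 CPM in expanded and 186 counts or 8.64 CPM in freshly isolated cells. This was 5.68-fold lower (interval 3.89 to 8.54), and 13.5% of all genes compared were at least 4-fold lower. The macrophage, B cell and erythroid markers given above were lower in the same library. At least 2-fold lower were 25.0% of all genes compared. Of 3 stromal and endothelial markers compared, 2 were lower, namely the scavenger receptor Stab2 (0.0951 CPM in expanded and 11.8 CPM in freshly isolated cells) and the growth factor receptor Pdgfrb (0.143 CPM in expanded and 4.88 CPM in freshly isolated cells). The summed level of that list was 129 CPM in expanded and 181 CPM in freshly isolated cells. Most of it came from the adhesion molecule Pecam1 (128 CPM in expanded and 163 CPM in freshly isolated cells). The other genes of that list fell below the filter. Cdh5 had 0 counts in expanded and 4 in freshly isolated cells, and Col3a1 had 0 in expanded and 1 in freshly isolated cells. Col1a1 had 4 in expanded and 6 in freshly isolated cells, whereas Kdr was higher, with 13 in expanded and 6 in freshly isolated cells. The part of these cells in the Ccnd1 level was not tested.

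Ratios and shares between different genes were taken per length, as CPM per kilobase of the gene length in the deposited table. On that scale Ccnd2 stood at 258 in expanded and 78.6 in freshly isolated cells, Ccnd3 at 59.0 in expanded and 30.0 in freshly isolated cells, and Ccnd1 at 0.330 in expanded and 1.87 in freshly isolated cells. Ccnd2 thus made up 81.3% of D cyclin transcripts per kilobase in expanded and 71.2% in freshly isolated cells. The share of Ccnd3 was 18.6% in expanded and 27.1% in freshly isolated cells. The ratio of Ccnd2 to Ccnd3 was 4.36 in expanded and 2.62 in freshly isolated cells, which is 1.66-fold higher (interval 1.59 to 1.74). This ratio of ratios depends neither on the scaling between libraries nor on gene length.

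The E cyclins had the highest folds of the set. Ccne1, the cyclin E1 gene (chr7:38097984-38107490, minus strand), had 1916 counts or 91.1 CPM in expanded and 119 counts or 5.53 CPM in freshly isolated cells, 16.5-fold higher (interval 13.7 to 20.0). Ccne2, the cyclin E2 gene (chr4:11191351-11204779, plus strand), had 1092 counts or 51.9 CPM in expanded and 51 counts or 2.37 CPM in freshly isolated cells, 21.9-fold higher (interval 16.6 to 29.6). Their intervals overlap. The ratio of Ccne1 to Ccne2 per kilobase was 2.89 in expanded and 3.85 in freshly isolated cells, and the interval of the change (0.752, from 0.526 to 1.06) includes no change.

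Ccne2 ranked 292 and Ccne1 355 of the 11715 genes by log2 fold, counted from the highest. The 3 genes nearest to Ccne2 by level in both libraries (Euclidean distance in log2 CPM, over 2 libraries) were Espl1, which encodes separase, at 53.6 CPM in expanded and 2.37 CPM in freshly isolated cells, Dmwd at 53.1 CPM in expanded and 2.28 CPM in freshly isolated cells, and the spindle protein gene Ckap2 at 53.2 CPM in expanded and 2.51 CPM in freshly isolated cells. Those nearest to Ccnd1 were Laptm4b, Pard6g and Pygm, at distances of 0.06 to 0.07.

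**Figure D2:**
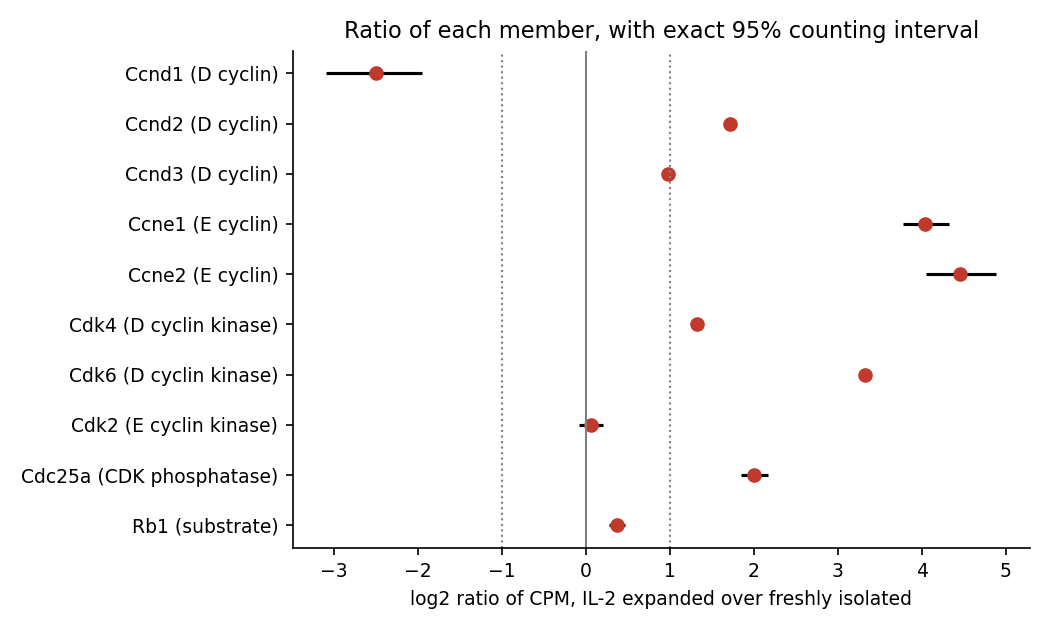
Log2 ratio of CPM, IL-2 expanded over freshly isolated, for each member with its role, as points with exact 95% counting intervals (lines, hidden by the point where narrow), and dotted lines at 2-fold. The E cyclins and Cdk6 lie furthest right, Cdk2 spans no change and Ccnd1 is left of the lower 2-fold line.

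The kinases separated by partner, with the partners of D cyclins higher and the partner of E cyclins level. Cdk6 (chr5:3343893-3531005, plus strand) had 22831 counts or 1086 CPM in expanded and 2337 counts or 109 CPM in freshly isolated cells, with a log2 fold of 3.32 (interval of the fold 9.59 to 10.4). Cdk4 (chr10:127063603-127067282, plus strand), whose promoter holds the 4 E-boxes shown above, had 5559 counts or 264 CPM in expanded and 2266 counts or 105 CPM in freshly isolated cells, 2.51-fold higher (interval 2.39 to 2.64). Cdk2 (chr10:128697939-128705051, minus strand), with E2F letters in its promoter, had 815 counts or 38.8 CPM in expanded and 801 counts or 37.2 CPM in freshly isolated cells. The interval of the Cdk2 ratio (1.04, from 0.944 to 1.15) includes no change, and under scaling by total count its log2 fold was -0.10.

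Cdk6 gained on both of the other kinases. Relative to Cdk4 it was 3.98-fold higher in the expanded library (interval 3.73 to 4.25), and relative to Cdk2 9.60-fold higher (interval 8.62 to 10.7). Cdk4 gained 2.41-fold on Cdk2 (interval 2.16 to 2.69). Per kilobase of deposited length, Cdk4 stood at 198 in expanded and 78.7 in freshly isolated cells, Cdk6 at 94.3 in expanded and 9.43 in freshly isolated cells, and Cdk2 at 12.4 in expanded and 11.9 in freshly isolated cells. Cdk4 was thus the leading kinase per kilobase, with 64.9% of the 3 kinases in expanded and 78.7% in freshly isolated cells. The share of Cdk6 was 31.0% in expanded and 9.43% in freshly isolated cells, and that of Cdk2 was 4.07% in expanded and 11.9% in freshly isolated cells. The order of Cdk4 and Cdk6 rests on the length used, because the deposited length is 11.5 kilobases for Cdk6 and 1.34 for Cdk4. With coding lengths of GENCODE M21 the ratio of Cdk6 to Cdk4 was 3.82 in expanded and 0.959 in freshly isolated cells, where deposited lengths gave 0.477 in expanded and 0.120 in freshly isolated cells.

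**Figure D3:**
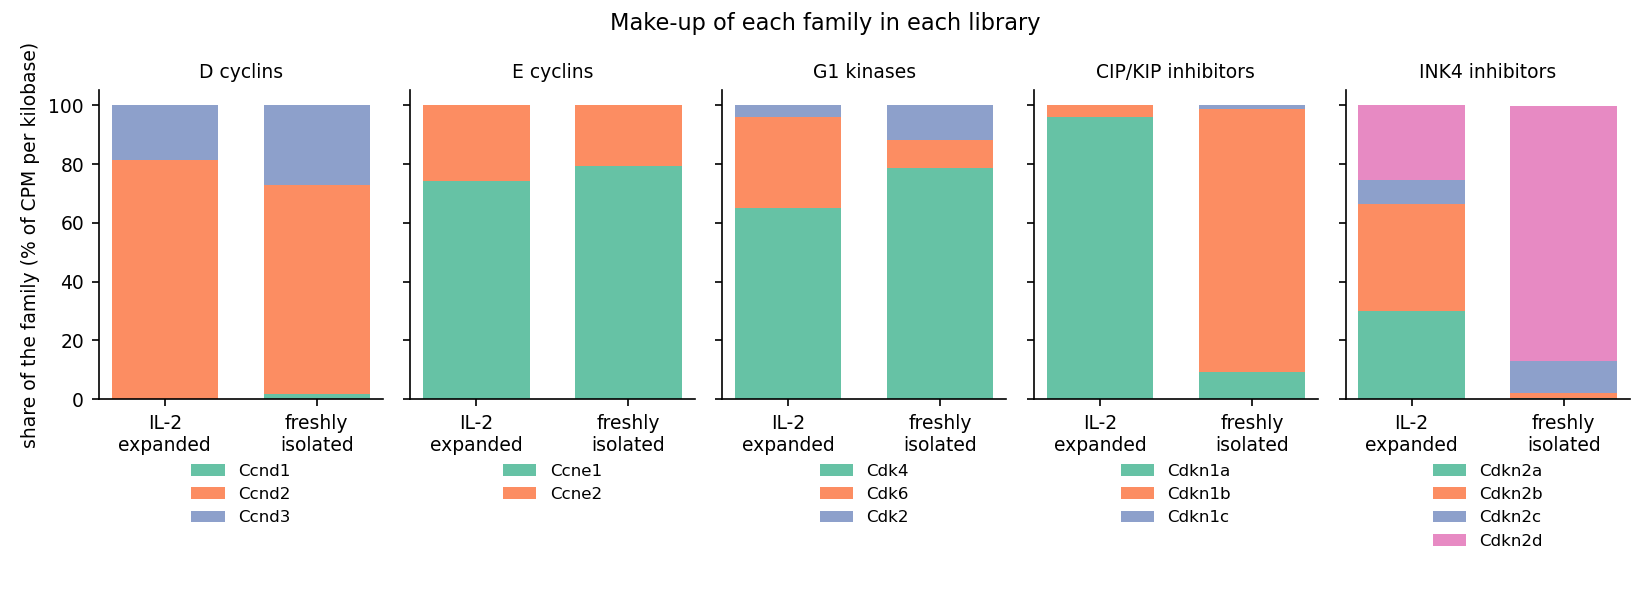
Share of each gene in its family, in percent of the summed CPM per kilobase, with the IL-2 expanded library left and the freshly isolated library right in each panel (1 library each). Ccnd2 leads the D cyclins and Cdk4 the kinases in both libraries with the deposited lengths, whereas the leading CIP/KIP inhibitor is Cdkn1a in expanded and Cdkn1b in freshly isolated cells.

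Set against their partners, E cyclins gained most. D cyclins summed to 317 CPM per kilobase in expanded and 110 in freshly isolated cells, and E cyclins to 63.1 in expanded and 3.58 in freshly isolated cells. The ratio of D to E cyclins was 5.02 in expanded and 30.8 in freshly isolated cells with deposited lengths, and 18.5 in expanded and 115 in freshly isolated cells with coding lengths. E cyclin transcripts exceeded those of Cdk2 per kilobase in expanded cells (ratio 5.10) and lay below them in freshly isolated cells (ratio 0.302). The ratio of D cyclins to the sum of Cdk4 and Cdk6 was 1.09 in expanded and 1.25 in freshly isolated cells with deposited lengths, but 1.55 in expanded and 3.28 in freshly isolated cells with coding lengths. E cyclins lay on the same sides of Cdk2 with coding lengths (ratio 3.14 in expanded and 0.181 in freshly isolated cells).

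Cdc25a, the phosphatase that removes inhibitory phosphates from Cdk2, was higher, and Rb1 was under 2-fold apart. Cdc25a (chr9:109875579-109893890, plus strand) had 1631 counts or 77.6 CPM in expanded and 416 counts or 19.3 CPM in freshly isolated cells, 4.01-fold higher (interval 3.60 to 4.48), although its log2 fold with the prior count fell just short of the 4-fold line. Its promoter holds the overlapping E2F letters shown above. Rb1, which encodes the retinoblastoma protein (chr14:73195502-73325791, minus strand), had 2105 counts or 100.1 CPM in expanded and 1666 counts or 77.4 CPM in freshly isolated cells, a ratio of 1.29 (interval 1.21 to 1.38). Ccnd2 therefore gained 2.53-fold on Rb1 (interval 2.37 to 2.71).

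**Figure D4:**
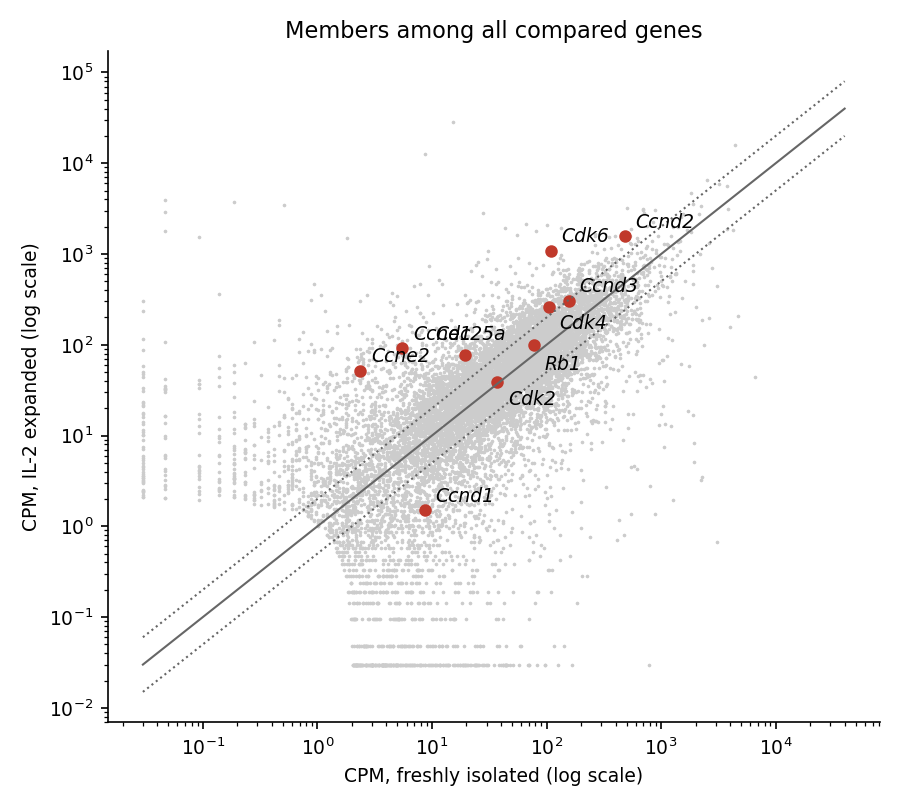
CPM in the IL-2 expanded library against CPM in the freshly isolated library, both on log axes, for the 11715 genes compared (grey) and the 10 members (red), with genes at 0 counts drawn at 0.03 CPM, the solid line at equal levels and dotted lines at 2-fold. The E cyclins and Cdk6 sit above the bulk of genes at their level, Cdk2 on the line of equal levels and Ccnd1 below the lower 2-fold line.

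Some members share exons with a gene on the opposite strand, and the use of strand in counting was not given in the sources used here, so their counts are less certain. Per GENCODE M21, Ints8 overlaps 17.4% of the joined exon bases of Ccne2 (2467 counts for Ints8 in expanded and 1411 in freshly isolated cells). The largest such share was that of Ccnd1, of whose joined exon bases 23.4% are overlapped by LTO1, which the deposited table lists under its synonym Oraov1 (334 counts in expanded and 461 in freshly isolated cells, where Ccnd1 had 32 in expanded and 186 in freshly isolated cells). Tspan31, which has 5049 counts in expanded and 633 in freshly isolated cells, lies 7 bases beyond the deposited end of Cdk4 and overlaps 19.7% of its joined exon bases in GENCODE M21. For Ccnd2, Ccnd3, Cdk6, Cdk2 and Rb1 the overlap with any single gene was at most 8.11% of exon bases, and Ccne1 and Cdc25a had none.

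Among the inhibitors of these kinases, the leading gene of each family differed between the libraries. Of 7 Cdk inhibitor genes, 4 were at least 2-fold higher, 2 lower and 1 between (median log2 fold 1.71). Among all genes compared, 22.4% were at least 2-fold higher and 25.0% at least 2-fold lower. Cdkn1b, which encodes p27, stood at 53.3 CPM in expanded and 419 CPM in freshly isolated cells, 7.86-fold lower (interval 7.39 to 8.37). Cdkn1a, which encodes p21, stood at 647 CPM in expanded and 21.9 CPM in freshly isolated cells, 29.6-fold higher. Per kilobase, Cdkn1a made up 96.0% of the CIP/KIP family in expanded and 9.22% in freshly isolated cells, and the family sum was 303 in expanded and 107 in freshly isolated cells.

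The INK4 inhibitors bind Cdk4 and Cdk6. Cdkn2b (p15) stood at 83.6 CPM in expanded and 0.929 CPM in freshly isolated cells, 90.0-fold higher (interval 58.1 to 148). Cdkn2a, whose p16 and p19ARF transcripts share exons and are counted together, had 1172 counts in expanded and 3 counts in freshly isolated cells. This was 400.0-fold higher (interval 137 to 1943). Of these products only p16 is an INK4 inhibitor, and its part of the counts is unknown. Cdkn2d (p19INK4d) stood at 55.0 CPM in expanded and 44.3 CPM in freshly isolated cells and made up 25.3% of the family per kilobase in expanded and 87.1% in freshly isolated cells. The INK4 sum was 165 CPM per kilobase in expanded and 38.6 in freshly isolated cells, while Cdk4 and Cdk6 summed to 292 in expanded and 88.1 in freshly isolated cells. Both sums use the deposited lengths. How they compare rests on the length used, and the comparison was not made with coding lengths. That INK4 sum includes all Cdkn2a counts, p19ARF among them (49.3 CPM per kilobase in expanded and 0.123 in freshly isolated cells). The other low member was Cdkn1c (p57), with 3 counts in expanded and 54 counts in freshly isolated cells, 17.6-fold lower (interval 5.70 to 87.9).

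Downstream of the kinases, the E2F genes furthest from equal levels were higher. Of 12 genes for E2F factors, their DP partners and the other pocket proteins, 8 were at least 2-fold higher, 1 lower and 3 between (median log2 fold 1.15), and with scaling by total count 6 were higher. With TMM the shares over all genes compared were 22.4% higher and 25.0% lower. The repressor genes E2f8 (73.4 CPM in expanded and 2.42 CPM in freshly isolated cells) and E2f7 (21.7 CPM in expanded and 0.883 CPM in freshly isolated cells) were furthest up. The activator E2f1 stood at 35.4 CPM in expanded and 2.83 CPM in freshly isolated cells. The DP partner Tfdp2 was lower, at 12.0 CPM in expanded and 35.5 CPM in freshly isolated cells, and E2f5 stood at 11.3 CPM in expanded and 14.8 CPM in freshly isolated cells. Like Rb1, the pocket protein genes Rbl1 (116 CPM in expanded and 85.2 CPM in freshly isolated cells) and Rbl2 (259 CPM in expanded and 179 CPM in freshly isolated cells) were under 2-fold apart.

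Genes of S phase and mitosis, the steps that follow, were higher almost throughout. Beside them, 22.4% of all genes compared were at least 2-fold higher and 25.0% at least 2-fold lower. Of 23 S phase genes, 20 were at least 2-fold higher and none lower (median log2 fold 2.85), with Ccna2, the next cyclin partner of Cdk2, at 299.5 CPM in expanded and 4.32 CPM in freshly isolated cells. The ribonucleotide reductase subunit gene Rrm2 stood at 463 CPM in expanded and 12.2 CPM in freshly isolated cells. The licensing factor Cdt1 stood at 47.4 CPM in expanded and 83.1 CPM in freshly isolated cells, under 2-fold apart. Pcna, the sliding clamp of DNA polymerase, was likewise under 2-fold apart, at 185 CPM in expanded and 112 CPM in freshly isolated cells. All 15 mitotic genes were at least 2-fold higher (median log2 fold 4.64), with the mitotic kinase Cdk1 at 159.5 CPM in expanded and 3.34 CPM in freshly isolated cells. Its partner Ccnb1, the cyclin B1 gene, stood at 45.3 CPM in expanded and 0.976 CPM in freshly isolated cells. The folds nearest to 2 in that list were those of the kinase gene Aurka (91.3 CPM in expanded and 6.46 CPM in freshly isolated cells) and the transcription factor gene Foxm1 (57.9 CPM in expanded and 8.97 CPM in freshly isolated cells). The log2 folds of Ccne1 (4.02) and Ccne2 (4.40) lay between the medians of those lists, and that of Cdk2 (0.06) lay below both.

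Regulators of cyclin and kinase activity were more mixed. Over all genes compared, 22.4% were at least 2-fold higher and 25.0% at least 2-fold lower. Of 11 genes for Cdk activation and the opposing kinases, 4 were at least 2-fold higher and none lower (median log2 fold 0.81). Cdc25c, the mitotic relative of Cdc25a, stood at 19.6 CPM in expanded and 0.976 CPM in freshly isolated cells, whereas Cdc25b stood at 74.4 CPM in expanded and 122 CPM in freshly isolated cells. Pkmyt1, a kinase gene whose product inhibits Cdk1, stood at 27.2 CPM in expanded and 28.7 CPM in freshly isolated cells. The checkpoint kinase gene Chek1, whose product marks Cdc25a for destruction, stood at 31.8 CPM in expanded and 3.02 CPM in freshly isolated cells. Of 16 genes for cyclin turnover, 3 were higher, 1 lower and 12 between (median log2 fold -0.01). Cks1b, a cofactor in the destruction of p27, stood at 79.5 CPM in expanded and 5.90 CPM in freshly isolated cells, and Fbxo5, an inhibitor of the anaphase-promoting complex, at 54.0 CPM in expanded and 7.20 CPM in freshly isolated cells. Fbxw7, the ubiquitin ligase subunit that recognises cyclin E, stood at 46.6 CPM in expanded and 71.7 CPM in freshly isolated cells. Usp28, a deubiquitinase that opposes Fbxw7, was 5.67-fold lower, at 9.99 CPM in expanded and 56.7 CPM in freshly isolated cells.

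**Figure D5:**
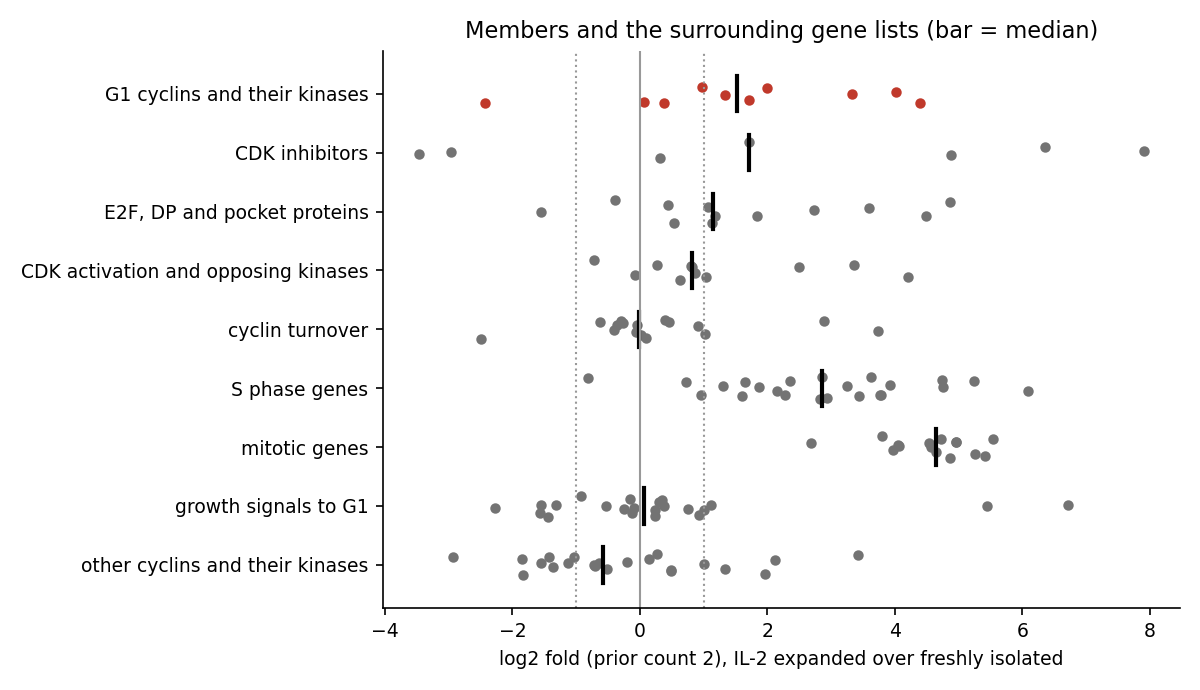
Log2 fold (prior count of 2), IL-2 expanded over freshly isolated, of each gene with a mean of at least 1 CPM, for the members (red) and 8 surrounding lists (grey), with a black bar at each median and dotted lines at 2-fold. All 15 mitotic genes lie right of the upper 2-fold line, while cyclin turnover genes centre near 0 (median -0.01).

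Transcripts of genes for signals that feed into D cyclins went both ways, and signalling itself was not measured. The list mixes genes that promote entry into G1 with genes that oppose it. Its median therefore does not show whether the signals moved together. Of 22 genes, 3 were at least 2-fold higher, 5 lower and 14 between (median log2 fold 0.07). Over all genes compared the shares were 22.4% higher and 25.0% lower, so the lower count was near the background. The IL-2 receptor chain gene Il2ra stood at 1913 CPM in expanded and 43.7 CPM in freshly isolated cells. Stat5b, a factor that acts on Ccnd2 downstream of IL-2, was lower, at 79.3 CPM in expanded and 235 CPM in freshly isolated cells. Myc stood at 143 CPM in expanded and 116 CPM in freshly isolated cells, while its relative Mycn stood at 82.6 CPM in expanded and 0.697 CPM in freshly isolated cells, 119-fold higher (interval 71.6 to 212). Foxo1, a factor linked to quiescence and to Cdkn1b expression, was 4.82-fold lower, at 89.6 CPM in expanded and 432 CPM in freshly isolated cells.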

How the data were processed

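The deposited table gives raw counts of reads for each gene, with the span of the gene and its length in kilobases. Per the submitters' processing notes, the tools were STAR 2.6.0, bcl2fastq 2.18.0.12, edgeR 3.28.1 and HTSeq 0.6.0, and the builds mm10 and GRCm38 are 2 names of 1 assembly. Tool settings, annotation and use of strand are not given in the sources used here.

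Libraries were scaled with TMM (edgeR 4.0.16, R 4.3.3). The comparison took genes whose mean level reached 1 CPM. Log2 folds used a prior count of 2 and counts by size of fold used these, while printed folds are ratios of CPM with Clopper-Pearson intervals from the conditional binomial distribution. Ratios of ratios have the conditional interval of an odds ratio (scipy 1.17.1). The code was checked on simulated counts with counting error alone, which says nothing of copied reads or of variation among samples. Alternatives were other scalings (one from DESeq2 1.42.0), prior counts and filters. Members and lists were chosen with earlier results of these data known. One erythroid marker is not reported here. Named genes are the members, the 2 genes furthest up and down in each pathway list, and the 3 nearest to the highest and lowest member. Other genes, the inhibitor families and the ratios were chosen after their values were seen.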

Additional observations from a re-analysis of the deposited data

How the results depend on the processing

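The direction of the folds at least 2-fold apart and the counts of members (6 higher, 1 lower) held under the 4 other scalings, 2 other prior counts and, for the counts, 2 other filters. Scaling by total count shifted the median of all genes by -0.16 on the log2 scale. Across scalings and prior counts the log2 fold of Ccnd3 ranged from 0.82 to 0.98, of Ccnd1 from -2.59 to -2.34 and of Cdk2 from -0.10 to 0.06. Of the list counts, T cell markers at least 2-fold lower numbered 2 with scaling by total count and 1 with TMM. With TMM the log2 fold of Cd247 was -0.88, close to the 2-fold line. Scaling by total count also gave 6 E2F, DP and pocket protein genes higher (8 with TMM), 3 (4) for Cdk activation, 2 (3) for cyclin turnover, and 2 (3) higher and 6 (5) lower for growth signals. With a mean of at least 5 CPM, which leaves fewer genes, those lower numbered 1 for Cdk inhibitors, 1 for stromal and endothelial markers, 4 for B cell markers and 2 for erythroid markers.

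Ratios per kilobase moved with the gene length, in alternatives chosen after seeing the data. The planned RefSeq coding length was not run. With joined GENCODE exon lengths, the ratio of Ccnd2 to Ccnd3 was 4.79 in expanded and 2.88 in freshly isolated cells, of Ccne1 to Ccne2 2.30 in expanded cells, of Cdk6 to Cdk4 0.954 in expanded and 0.240 in freshly isolated cells, of Cdk4 to Cdk2 13.1 in expanded and 5.41 in freshly isolated cells, and of Cdk6 to Cdk2 12.5 in expanded and 1.30 in freshly isolated cells. With GENCODE coding lengths the ratio of Ccnd2 to Ccnd3 was 5.19 in expanded and 3.12 in freshly isolated cells, of Ccne1 to Ccne2 1.74 in expanded and 2.31 in freshly isolated cells, of Cdk6 to Cdk4 3.82 in expanded and 0.959 in freshly isolated cells, of Cdk4 to Cdk2 7.79 in expanded and 3.23 in freshly isolated cells, and of Cdk6 to Cdk2 29.7 in expanded and 3.10 in freshly isolated cells. The order of Cdk6 and Cdk4 in expanded cells, and of Cdk6 and Cdk2 in freshly isolated cells, was thus reversed. No paired analysis was possible because each group had 1 library. With 32 and 51 counts, Ccnd1 in expanded and Ccne2 in freshly isolated cells have the widest intervals of the set.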

Other observations

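Of 22 cyclins and kinases outside G1 that were compared, 4 were at least 2-fold higher and 8 at least 2-fold lower (median log2 fold -0.58), beside 22.4% higher and 25.0% lower among all genes compared. Ccng1, the cyclin G1 gene, stood at 1139 CPM in expanded and 106 CPM in freshly isolated cells, and the kinase gene Cdk18 at 2.95 CPM in expanded and 0.604 CPM in freshly isolated cells. The cyclins linked to splicing, Ccnl1 (78.8 CPM in expanded and 607 CPM in freshly isolated cells) and Ccnl2 (84.4 CPM in expanded and 304 CPM in freshly isolated cells), were furthest down. Cyclin T, the partner of the transcription kinase Cdk9, is encoded by Ccnt1 (37.7 CPM in expanded and 77.2 CPM in freshly isolated cells) and Ccnt2 (45.7 CPM in expanded and 122 CPM in freshly isolated cells), while Cdk9 itself stood at 98.4 CPM in expanded and 70.4 CPM in freshly isolated cells. Ccna1, a cyclin of germ cells, had 0 counts in both libraries.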
